A study of Mus musculus with 4 samples.

Results

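The adaptor genes *Traf1*, *Traf2*, *Traf3*, *Traf5* and *Traf6*, the TRAF-binding gene *Tank*, the cellular inhibitor of apoptosis (cIAP) genes *Birc2* and *Birc3*, and *Map3k14*, which encodes the NF-kB-inducing kinase NIK, were followed across the cell types of the small intestinal lamina propria. They are 9 of the 31950 gene IDs that both gene expression libraries list, and all 9 were matched by ID. The genes were chosen by name and role with their levels and A20ZF7-to-WT ratios in the same libraries in view, so their levels and ratios are given as a description, with no test. In mm10 (GRCm38.p6), *Traf1* lies on the minus strand of chromosome 2 at 34941750-34961812, *Traf2* on the minus strand of chromosome 2 at 25517982-25546940, *Traf3* on the plus strand of chromosome 12 at 111166321-111267155, *Traf5* on the minus strand of chromosome 1 at 191997203-192092599, and *Traf6* on the plus strand of chromosome 2 at 101678420-101701668. *Tank* lies on the plus strand of chromosome 2 at 61578557-61654171, *Birc2* and *Birc3* lie beside each other on the minus strand of chromosome 9 at 7818226-7837131 and 7847468-7873205, and *Map3k14* lies on the minus strand of chromosome 11 at 103219764-103267401.

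Cells came from WT and A20ZF7 mice, all 12 weeks old. In A20ZF7 mice, homozygous knock-in point mutations disable the seventh zinc finger of A20, the part of the protein that binds linear (M1) ubiquitin chains. The mutation is carried by the whole animal, stroma included, and the labels name no treatment of either genotype. For each genotype, cells of 2 mice were tagged with antibodies, enriched for T cells and innate lymphoid cells (ILCs) by negative selection, and pooled into 1 library by a 5′ droplet kit. With 1 library per genotype no test between genotypes was possible, and every interval in parentheses is an exact 95% interval that covers counting error only.

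TRAF proteins are recruited to the tails of TNF receptor family members, and TRAF6 also serves IL-1, IL-17 and Toll-like receptors, where they and their partners build the ubiquitin chains that activate NF-kB and MAP kinases. TRAF2, TRAF3 and the cIAPs also form the complex that keeps NIK degraded, and loss of that complex from the cytosol starts the noncanonical NF-kB pathway. A20, encoded by *Tnfaip3*, edits and binds such chains, and *Traf1*, *Birc3* and *Tnfaip3* are themselves known targets of NF-kB.

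After filtering, 14753 WT cells (median 1059 unique molecular identifiers, UMIs) and 43218 A20ZF7 cells (median 853 UMIs) remained, and marker gates placed 10910 (74.0%) and 26956 (62.4%) of them in a cell class. A class was used with at least 50 cells, which held for 19 classes in WT and 23 in A20ZF7, and 19 classes were usable in both. Regulatory T cells, LTi-like ILC3, dendritic cells and mast cells were thus read in A20ZF7 alone, and B cells, NCR-positive ILC3 and enteric glia in neither library. Of genes that the gates did not use, *Il17a* was highest in Th17-like T cells (723 CPM in WT and 2555 CPM in A20ZF7), *Ccl5* in CD8 T cells, *Igha* in plasma cells and *Fabp2* in epithelial cells in both libraries. In A20ZF7, *Il17a* also measured 2246 CPM in gamma-delta T cells and 2034 CPM in other T cells. Its median over the classes other than Th17-like T cells was 104 CPM in WT and 867 CPM in A20ZF7. *Il17f* was higher in LTi-like ILC3 than in Th17-like T cells of A20ZF7, and *Areg* was higher in epithelial cells than in ILC2 of WT. *Gzmb*, which the gate of ILC1 and NK cells did use, ranked 3 in CD8 T cells. Of the kept barcodes, 913 occur in both libraries, 6.19% of those in WT and 2.11% of those in A20ZF7. The libraries were counted against gene lists of 33696 (WT) and 32285 (A20ZF7) IDs, so the gene list and the genotype cannot be told apart for any ratio below, and the same holds for the library preparation. Levels are the UMIs of a gene scaled to the UMIs of its class as CPM over the shared IDs, and a ratio is the A20ZF7 level over the WT level.

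*Traf3* and *Tank* were higher in A20ZF7 than in WT in every class where they could be read, in lymphocytes and stroma for both and in epithelium for *Tank* alone, with median ratios of 2.32 and 2.88 over the classes. In the stromal classes the summed level of the T cell genes *Cd3d*, *Cd3e*, *Cd3g* and *Trac* was higher in A20ZF7 too. Its ratio was 2.81 in *Adamdec1* fibroblasts, 1.87 in *Pi16*, *Cd34* or *Grem1* fibroblasts and 2.72 in endothelial cells. The part of these genes in the stromal ratios was not tested. *Traf1* and *Birc3* were past the fold in *Adamdec1* fibroblasts, smooth muscle cells and plasma cells and in few lymphocyte classes, *Birc2* was past the fold in 10 of 16 classes of both kinds, *Traf2* could be read in 7 classes alone, and *Traf5*, *Traf6* and *Map3k14* lay within the fold in most classes. A ratio was read where the mean level gave at least 10 expected UMIs in the smaller library, and a gene was counted past a fold of 1.5 in either direction. In Th17-like T cells 8 of the 9 genes could be read, of which 2 were at least 1.5-fold higher and 0 as much lower, where 11.1% of all 5963 genes read were as much higher and 9.48% as much lower. In CD8 T cells 3 of 8 were higher and 0 lower, beside 10.8% and 9.87% of 3727 genes. In other innate lymphocytes, those without the markers of a named subset, 2 of 9 were higher and 0 lower, beside 12.3% and 12.5% of 7285 genes. In *Adamdec1* fibroblasts, the most numerous class, 4 of 9 were higher and 0 lower, beside 11.3% and 10.2% of 12672 genes. Where WT cells of 1 mouse were left out, the count in Th17-like T cells was 3 without mouse 1 and 5 without mouse 2, the latter adding *Traf1* (2.14), *Birc2* (2.17) and *Birc3* (1.53). These counts rest on 150 WT cells of mouse 2 or 109 of mouse 1, as WT cells without a hashtag call were left out too. The share of all genes past the fold was not computed for these fewer cells, so the counts have no background. Every ratio given below without a WT mouse likewise leaves out the WT cells without a hashtag call. The median ratio of the genes was 1.31, 1.22, 1.31 and 1.44 in these 4 classes, where the median over all genes read was 1.01, 0.996, 1.002 and 0.970.

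**Figure D1:**
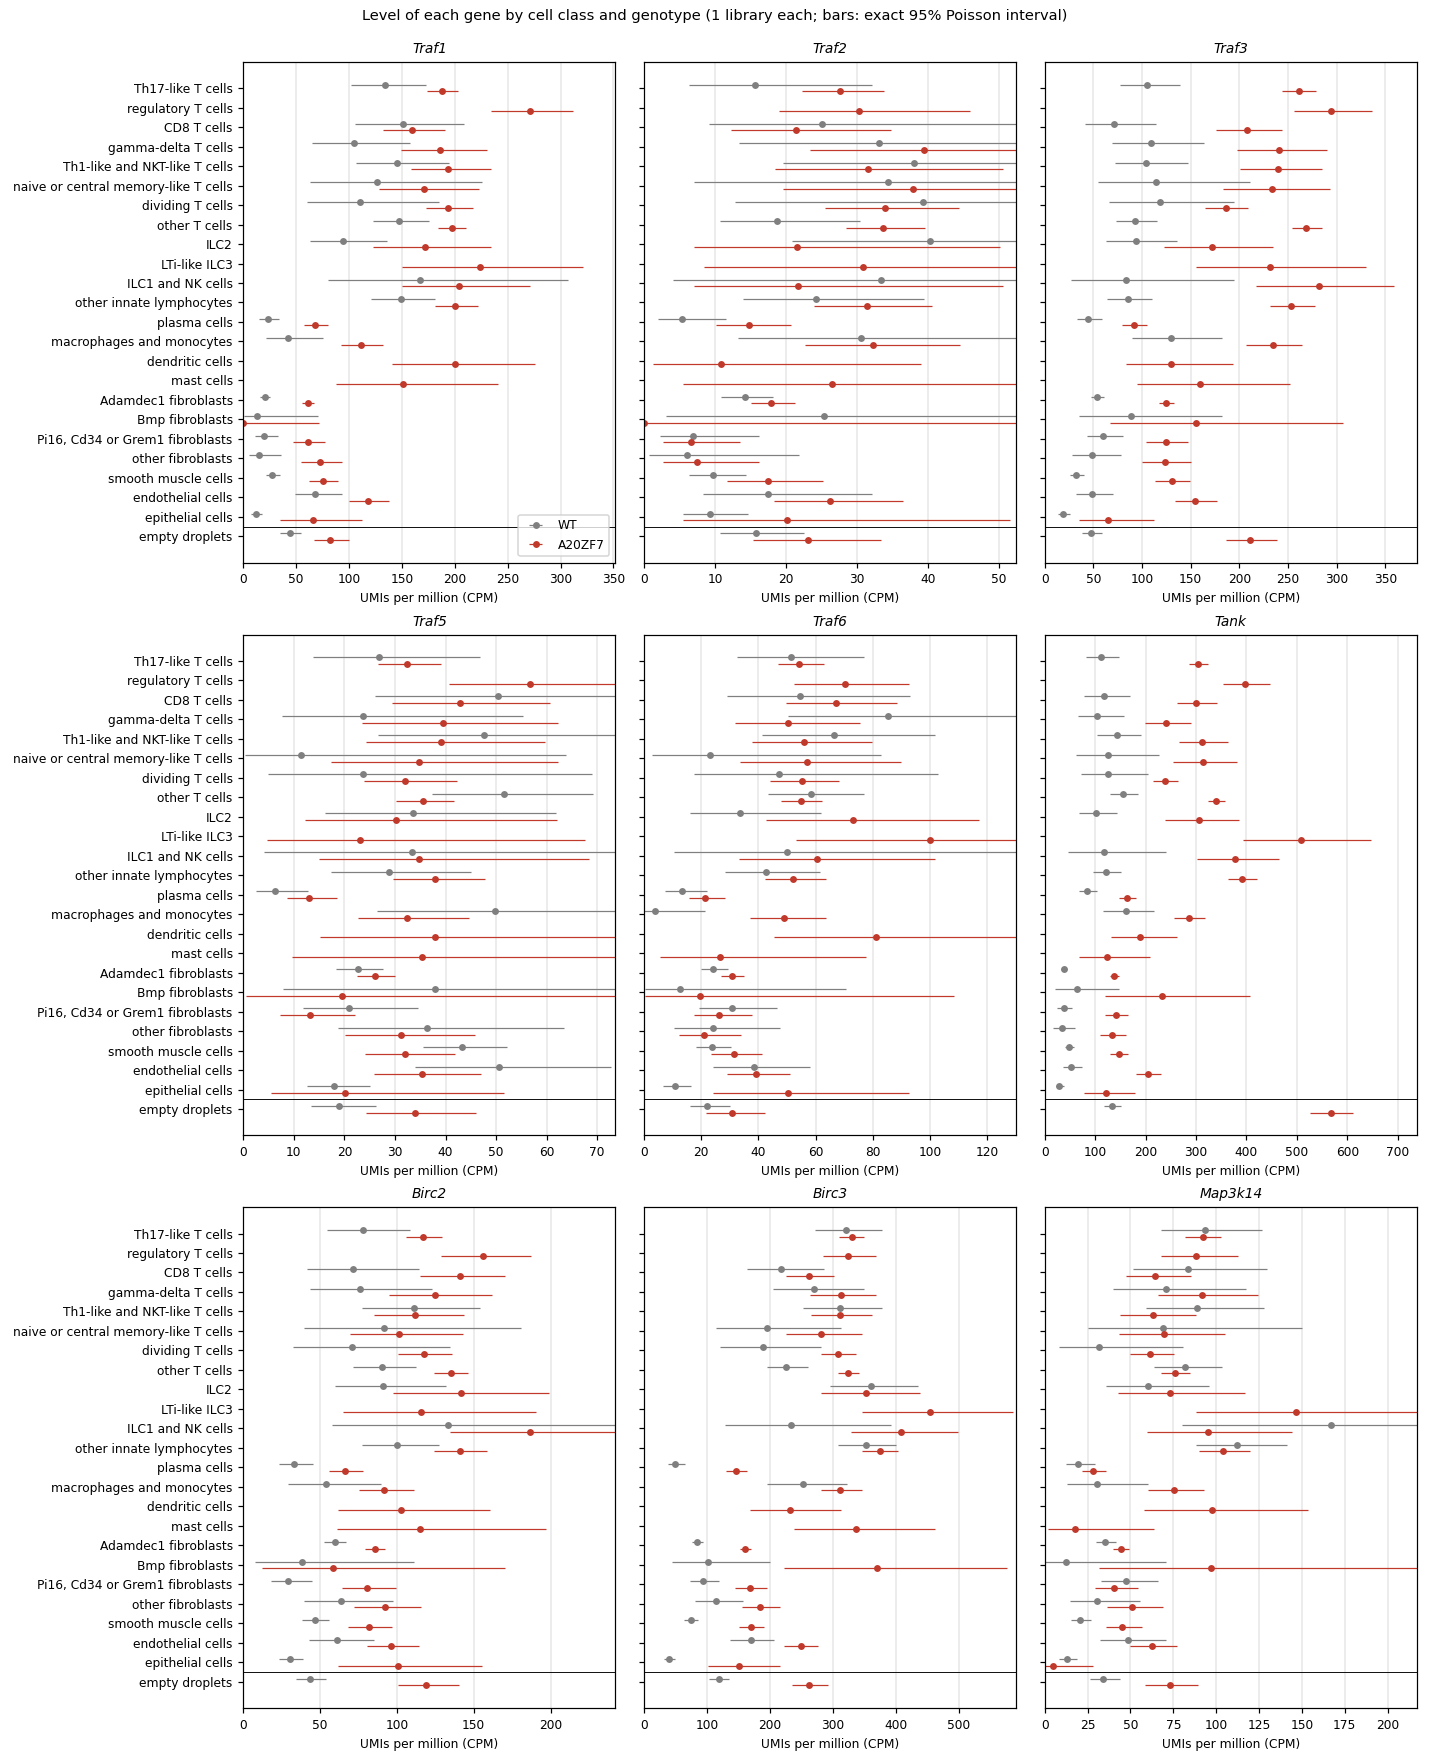
Level of each gene in CPM (x axis) by cell class (y axis) in the WT (grey) and A20ZF7 (red) library, 1 library of 2 pooled mice each, with empty droplets in the lowest position; points are levels and bars exact 95% Poisson intervals, some of which run past the axis, and axes differ between genes. *Traf3* and *Tank* sit to the right in A20ZF7 in every class with a reading, while the intervals of *Traf5* and *Map3k14* overlap in most classes.

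*Traf3* encodes the adaptor that holds NIK for degradation, and it also serves antiviral signaling. Its WT levels were 105 CPM in Th17-like T cells, 71.3 CPM in CD8 T cells, 85.1 CPM in other innate lymphocytes and 53.9 CPM in *Adamdec1* fibroblasts. The A20ZF7 levels in the same classes were 261, 208, 253 and 125 CPM. The ratios were thus 2.49 (1.85-3.41), 2.92 (1.76-5.14), 2.98 (2.25-4.003) and 2.32 (2.01-2.69), and no interval of a level in WT met that in A20ZF7. Of the 17 classes with a reading, 17 were at least 1.5-fold higher, from 1.58 (0.939-2.85) in dividing T cells to 4.04 (3.12-5.27) in smooth muscle cells, and 16 intervals of the ratio lay above 1. In smooth muscle cells the T cell genes *Cd3d*, *Cd3e*, *Cd3g* and *Trac* summed to 229 CPM in WT and 691 CPM in A20ZF7, and their part in the ratio was not tested. In other innate lymphocytes the *Traf3* ratio was 1.92 without WT mouse 2. Over all pairs of a gene and a class, 16.5% of 100947 were at least 1.5-fold higher and 11.2% as much lower. In WT, the *Traf3* level was highest in macrophages and monocytes (130 CPM, 90.2-182), whose interval overlapped that of Th17-like T cells (77.1-139), and lowest in epithelial cells (19.0 CPM). The 5′ end of *Traf3* overlaps *4930595D18Rik* on the other strand. In A20ZF7 *Traf3* was highest in regulatory T cells (294 CPM) and again lowest in epithelial cells (65.5 CPM). All neighbours in the order of classes had overlapping intervals, 18 of 18 pairs in WT and 22 of 22 in A20ZF7, and the same held for each of the other genes but *Traf1* in A20ZF7.

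*Tank* encodes a TRAF-binding protein that links TRAF3 to the kinases TBK1 and IKK-epsilon and restrains TRAF-driven NF-kB activity. In WT it measured 112 CPM in Th17-like T cells, 117 CPM in CD8 T cells, 122 CPM in other innate lymphocytes and 37.5 CPM in *Adamdec1* fibroblasts. In A20ZF7 these levels were 305, 300, 391.6 and 138 CPM. The ratios were 2.73 (2.06-3.71), 2.56 (1.72-3.94), 3.22 (2.56-4.11) and 3.69 (3.13-4.38), again with no overlap between the intervals of the levels. All 18 classes with a reading were at least 1.5-fold higher and all 18 intervals of the ratio lay above 1, from 1.78 (1.29-2.51) in macrophages and monocytes to 4.20 (2.49-6.89) in epithelial cells. The epithelial value joins cells of unlike depth, with a median of 4219.5 UMIs in WT and 1656.5 UMIs in A20ZF7, and the summed level of the T cell genes *Cd3d*, *Cd3e*, *Cd3g* and *Trac* there was 76.0 and 549 CPM. LTi-like ILC3 had the highest *Tank* level in A20ZF7 (508 CPM), followed by regulatory T cells (398 CPM) with an overlapping interval, and neither class was large enough to read in WT.

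Genes that were as evenly higher were few. Of the 2328 genes read in at least 15 of the 19 classes, 27 (1.16%) were at least 1.5-fold higher in at least 15 of them, and *Traf3* and *Tank* were 2 of these. The others included cytokine and T cell genes such as *Il17a* (median ratio 7.80), *Tnfrsf9* (4.16) and *Ctla4* (3.72), and the NF-kB subunit gene *Nfkb1* (1.78), but also *Zc3h7a* (9.18) and the respiratory chain gene *Ndufb4* (7.67). These genes were named after their values were seen. *Traf3* and *Tank* were chosen with their ratios in view, so their place among the 27 is a description and no support. How far the unlike gene lists carry such even ratios was not tested.

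**Figure D2:**
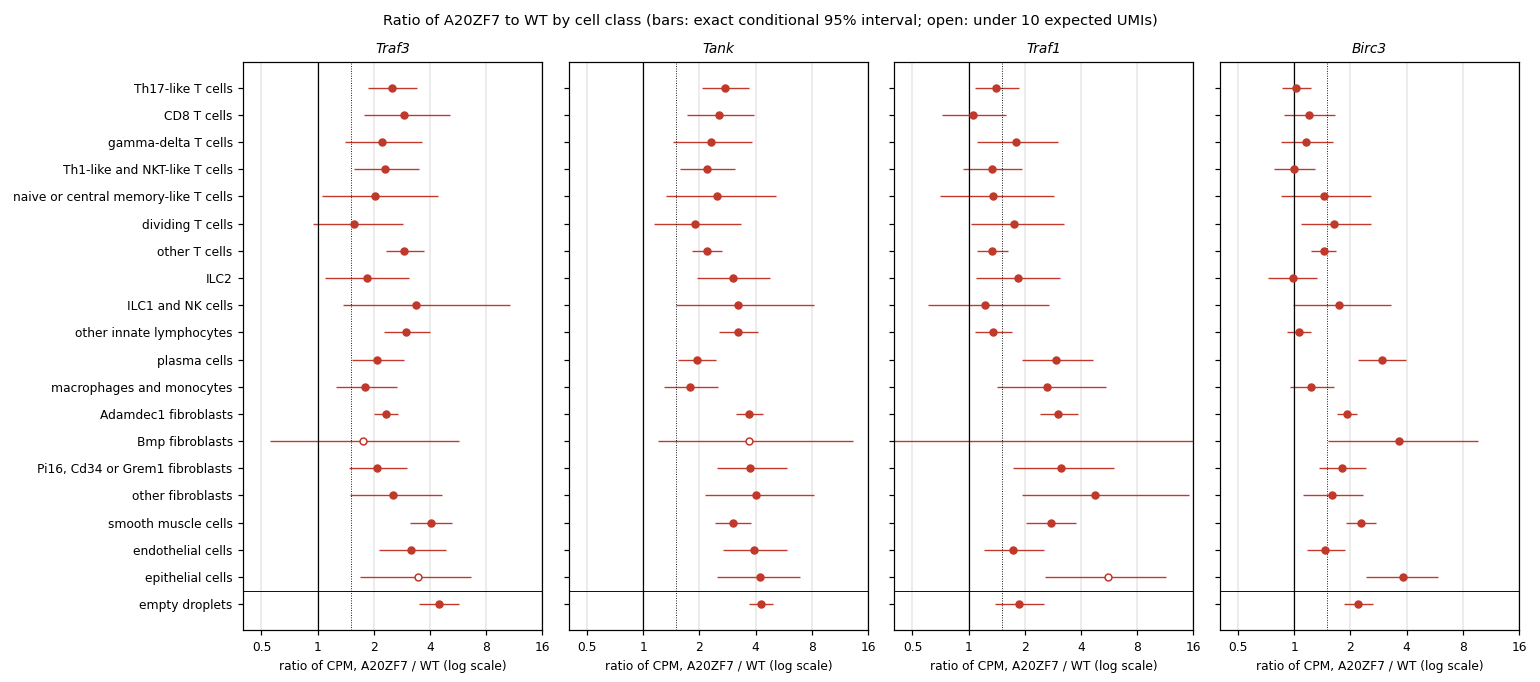
Ratio of the A20ZF7 to the WT level (x axis, log scale) of *Traf3*, *Tank*, *Traf1* and *Birc3* by cell class (y axis) and in empty droplets; bars are exact conditional 95% intervals, some of which run past the axis, open points had under 10 expected UMIs, the solid line marks a ratio of 1 and the dotted line 1.5. *Traf3* and *Tank* lie right of the dotted line in every class, while *Traf1* and *Birc3* lie left of it in most T cell classes and right of it in fibroblasts with a point.

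The same direction was seen outside cells. In empty droplets, taken as barcodes of 10 to 100 UMIs, *Traf3* measured 47.5 CPM in WT and 211 CPM in A20ZF7, a ratio of 4.44 (3.48-5.72). *Tank* measured 133 and 568 CPM there, a ratio of 4.25 (3.68-4.93). Of the 9 genes, 7 were at least 1.5-fold higher in empty droplets and 0 as much lower, where 30.5% and 11.5% of 8890 genes were, and the median ratios were 2.12 for the 9 genes and 1.21 for all genes. The others past the fold were *Birc2* at 2.75, *Birc3* at 2.21, *Map3k14* at 2.12, *Traf1* at 1.87 and *Traf5* at 1.79. For *Tank* no class of either library had an interval above that of empty droplets, and 22 of 23 A20ZF7 classes lay below it. For *Traf3*, 9 WT and 5 A20ZF7 classes lay above the empty droplets and 2 and 9 below. In the still smaller barcodes of 1 to 9 UMIs, a range chosen after seeing the data, the ratios were 2.50 for *Traf3* and 2.15 for *Tank*, but 1.32 for *Traf1*, 1.41 for *Traf5* and 0.984 for *Map3k14*. With the level of empty droplets taken off each class, scaled by the share of immunoglobulin UMIs in that class, the ratios in Th17-like T cells were 2.26 for *Traf3* and 2.17 for *Tank*, and in *Adamdec1* fibroblasts 1.91 and 2.19.

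The sequence before the starts of the 9 genes, which the choice of genes did not use, was also read. The 250 bases before each RefSeq start were searched on both strands for the 10-letter NF-kB motif, for all 9 genes in 13 windows. Matches were found for *Traf3* (1 match, 10 bases before the start used) and in every window of *Tank*. That is for 2 of 9 genes, where 8.23% of 27025 genes and 7.25% of 32851 windows had one. A count of 2 is too small to be read as a result about these genes. The *Traf3* start used lies after 111166321, where its gene span above begins, so the match lies within that span. *Tank* has more windows than any other of the 9 genes, and some of them overlap and hold the same match. The share of all genes is thus not a like comparison for *Tank*. The windows, from RefSeq, are shown for the genes with the most even ratios, and capitals mark the match. They read 5′ to 3′ on the plus strand of GRCm38.p6:
Traf3, chr12:111166120-111166369: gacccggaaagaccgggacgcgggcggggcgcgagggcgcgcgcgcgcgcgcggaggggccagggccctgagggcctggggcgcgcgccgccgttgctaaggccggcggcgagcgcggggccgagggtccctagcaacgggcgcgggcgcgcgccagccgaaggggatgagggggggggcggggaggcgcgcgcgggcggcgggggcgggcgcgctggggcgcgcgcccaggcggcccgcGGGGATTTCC
Tank, first start, chr2:61578307-61578556: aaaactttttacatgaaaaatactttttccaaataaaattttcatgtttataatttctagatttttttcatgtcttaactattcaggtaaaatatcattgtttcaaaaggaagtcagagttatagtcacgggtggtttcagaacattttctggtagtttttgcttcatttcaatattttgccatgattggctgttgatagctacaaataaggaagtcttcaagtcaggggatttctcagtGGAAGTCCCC
Tank, later start, chr2:61592847-61593096: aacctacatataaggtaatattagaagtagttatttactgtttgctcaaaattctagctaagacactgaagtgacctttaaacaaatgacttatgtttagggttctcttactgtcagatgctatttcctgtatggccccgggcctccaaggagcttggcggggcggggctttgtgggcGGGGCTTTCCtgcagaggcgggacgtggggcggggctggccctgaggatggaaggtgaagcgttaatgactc
The *Traf3* window holds 85.2% G and C bases, the first *Tank* window 31.2% and the later one 49.6%. In the first *Tank* window the match is on the minus strand, so the capitals are its reverse complement. The windows of the other 7 genes held no match in these letters, among them *Traf1* and *Birc3*, named above as known targets of NF-kB. A match is a description of these letters, and no binding was measured.

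*Traf1* encodes an adaptor without the ligase domain of its relatives, induced on activation of lymphocytes. In WT it measured 134 CPM in Th17-like T cells, 151 CPM in CD8 T cells and 149 CPM in other innate lymphocytes, against 20.1 CPM in *Adamdec1* fibroblasts. In A20ZF7 these were 188, 160, 201 and 60.8 CPM. The ratios were 1.40 (1.08-1.86), 1.06 (0.723-1.58), 1.35 (1.08-1.70) and 3.02 (2.40-3.84), so the 3 lymphocyte classes stayed under the fold and the fibroblasts passed it. Over the 17 classes with a reading, 10 were at least 1.5-fold higher and 0 as much lower, from 1.06 in CD8 T cells to 4.77 (1.93-15.2) in other fibroblasts. In A20ZF7 Bmp fibroblasts 0 *Traf1* UMIs were counted, with an interval of the level that reached 71.7 CPM, so the plot of ratios has no point there. Without WT mouse 2 the ratio was 2.14 in Th17-like T cells and 1.58 in other innate lymphocytes. Among the lymphocyte classes, ILC2 (1.83), gamma-delta T cells (1.79) and dividing T cells (1.76) passed the fold. In WT, the T cells as a whole held 6.89 (5.43-8.83) times the *Traf1* level of *Adamdec1* fibroblasts, and in A20ZF7 3.21 (2.90-3.56) times. The highest level in A20ZF7 was in regulatory T cells (271 CPM), and neighbours in the order of classes had overlapping intervals except macrophages and monocytes (111 CPM, 92.5-132) above smooth muscle cells (75.0 CPM, 62.4-89.4).

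The higher *Traf1* level in A20ZF7 *Adamdec1* fibroblasts stood beside higher lymphocyte transcripts in the same class, and its ratio differed with the WT cells counted. These are sums over the class, and whether the same cells held *Traf1* and lymphocyte transcripts was not examined. The T cell genes *Cd3d*, *Cd3e*, *Cd3g* and *Trac* were 4 of 4 higher in A20ZF7 *Adamdec1* fibroblasts, and their summed level was 135 CPM in WT and 379 CPM in A20ZF7. The 14 genes of the lymphocyte list were 14 of 14 higher there, with a summed level of 616 and 1351 CPM. *Cd3e* in these fibroblasts stood at 4.53% of its level in T cells in WT and at 13.1% in A20ZF7, and *Traf1* at 14.5% and 31.2%. The gates used *Cd3e*, so its percentages are partly set by them and are not a like comparison for *Traf1*. Of genes that the gates did not use, *Ptprc* stood at 12.0% in WT and 33.3% in A20ZF7, and *Il17a* at 11.1% and 22.4%. None of these genes was at 0 in either library, and the part of lymphocyte RNA in the *Traf1* ratio was not tested. In WT cells that could be assigned to a mouse, *Traf1* in *Adamdec1* fibroblasts was 31.4 CPM (20.3-46.3) in mouse 1 and 39.7 CPM (28.0-54.8) in mouse 2, above the 20.1 CPM of all WT cells of the class. Against these cells alone the ratio of 3.02 became 1.53 without mouse 1 and 1.94 without mouse 2, and the T cell level in WT became 3.82 and 4.08 times that of the fibroblasts.

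*Traf2* encodes the adaptor that binds the cIAPs. With 227 UMIs in WT it was too sparse to read in most classes, and the 7 classes that could be read had 4 at least 1.5-fold higher and 0 as much lower. In other T cells it measured 18.7 CPM in WT and 33.7 CPM in A20ZF7 (ratio 1.80, 1.07-3.24), and in *Adamdec1* fibroblasts 14.2 and 17.9 CPM (1.27, 0.930-1.74). Over all T cells together the levels were 24.5 CPM (18.6-31.8) and 31.3 CPM (28.2-34.7), whose intervals overlapped.

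*Traf5*, which encodes a close relative of TRAF2 that restrains IL-6 receptor signaling in T cells, was within the fold in most classes. Of 12 classes with a reading, 1 was at least 1.5-fold higher and 2 as much lower, with a median ratio of 0.838. Plasma cells were the class above (2.09, 0.895-5.65), and macrophages and monocytes (0.649, 0.337-1.33) and *Pi16*, *Cd34* or *Grem1* fibroblasts (0.627, 0.281-1.39) the classes below, all with intervals that include 1. Among these 12 the only interval that left out 1 was that of other T cells, at 51.5 CPM in WT and 35.6 CPM in A20ZF7 (0.691, 0.491-0.989). *Traf6*, the adaptor of the IL-1 and IL-17 receptor families, had 12 readings with 2 higher and 1 lower and a median ratio of 1.14. It measured 51.3 and 54.4 CPM in Th17-like T cells (1.06, 0.685-1.71) and 58.1 and 56.3 CPM in all T cells (0.969, 0.805-1.18). The latter interval, which covers counting error only and no spread between animals, left out a difference of 1.5-fold. In WT macrophages and monocytes 1 *Traf6* UMI was counted, which is too few for a reading beside the 48.9 CPM of A20ZF7.

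*Birc2* and *Birc3* encode cIAP1 and cIAP2, ubiquitin ligases that TRAF2 brings to TNF receptors. *Birc2* measured 78.1 CPM in WT and 117 CPM in A20ZF7 in Th17-like T cells, a ratio of 1.499 (1.06-2.18) that was just short of the fold and became 1.51 and 2.17 without WT mouse 1 and 2. In CD8 T cells it measured 71.3 and 141 CPM (1.98, 1.18-3.52), and in *Adamdec1* fibroblasts 59.4 and 85.4 CPM (1.44, 1.24-1.67). Of 16 classes with a reading, 10 were at least 1.5-fold higher and 0 as much lower, with a median ratio of 1.61, from 1.01 in Th1-like and NKT-like T cells to 3.32 in epithelial cells. The pooled T cells, innate lymphocytes and fibroblasts gave ratios of 1.47 (1.27-1.72), 1.48 (1.19-1.86) and 1.54 (1.35-1.76).

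*Birc3* ratios varied among lymphocytes and among other cells. In WT it measured 321 CPM in Th17-like T cells, 360 CPM in ILC2 and 352 CPM in other innate lymphocytes, and in A20ZF7 329, 353 and 374 CPM. The ratios of 1.03 (0.861-1.23), 0.980 (0.726-1.32) and 1.06 (0.913-1.24) all held 1 in their intervals. Other lymphocytes were higher, with ILC1 and NK cells at 1.74 (0.989-3.31) and dividing T cells at 1.63 (1.08-2.57) past the fold and other T cells at 1.44 (1.24-1.68) under it. In *Adamdec1* fibroblasts the levels were 83.9 and 161 CPM (1.92, 1.70-2.16), in smooth muscle cells 74.4 and 170 CPM (2.28, 1.89-2.76), and in plasma cells 49.6 and 146 CPM (2.94, 2.21-3.98). Macrophages and monocytes at 1.23 (0.947-1.63) and endothelial cells at 1.47 (1.17-1.86) stayed under the fold. Over 19 classes 9 were at least 1.5-fold higher and 0 as much lower. Without WT mouse 1 the *Adamdec1* fibroblast ratio was 1.41, and without WT mouse 2 the ratio in Th17-like T cells was 1.53. Both settings also left out the WT cells without a hashtag call. Among WT *Adamdec1* fibroblasts with a call, *Birc3* measured 95.4 CPM in mouse 1 and 114 CPM in mouse 2. Both levels are above the 83.9 CPM of all WT cells of the class, so the ratio of 1.41 does not show the effect of mouse 1 alone. The T cell level was 3.09 (2.71-3.53) times that of *Adamdec1* fibroblasts in WT and 1.98 (1.85-2.11) times in A20ZF7. The summed level of the 4 T cell genes in plasma cells was 106 CPM in WT and 562 CPM in A20ZF7, and its part in the plasma cell ratio was not tested. In plasma cells the ratio of all 7028 genes read had a median of 1.67, and the median UMIs per plasma cell were 3343 in WT and 2056.5 in A20ZF7.

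*Map3k14* encodes NIK, the kinase that the TRAF2, TRAF3 and cIAP complex degrades. It measured 93.7 CPM in WT and 92.1 CPM in A20ZF7 in Th17-like T cells (0.983, 0.710-1.39), and 81.8 and 78.5 CPM in all T cells (0.960, 0.821-1.13). In other innate lymphocytes the levels were 112 and 104 CPM (0.925, 0.705-1.23). The interval over all T cells, which covers counting error only and no spread between animals, left out a difference of 1.5-fold in either direction. Of 14 classes with a reading 3 were at least 1.5-fold higher, namely macrophages and monocytes (2.45, 1.19-5.86), smooth muscle cells (2.20, 1.53-3.19) and other fibroblasts (1.69, 0.830-3.77). In smooth muscle cells *Map3k14* measured 15.9 CPM in WT mouse 1 and 41.6 CPM in WT mouse 2, which are 2.62 times apart, and 45.4 CPM in A20ZF7. The summed level of the 4 T cell genes had ratios of 1.98, 3.01 and 2.89 in these 3 classes. Its part in the *Map3k14* ratios was not tested. The 5′ end of *Map3k14* overlaps the noncoding gene *1700028N14Rik* on the same strand, so the split of reads between them is uncertain.

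**Figure D3:**
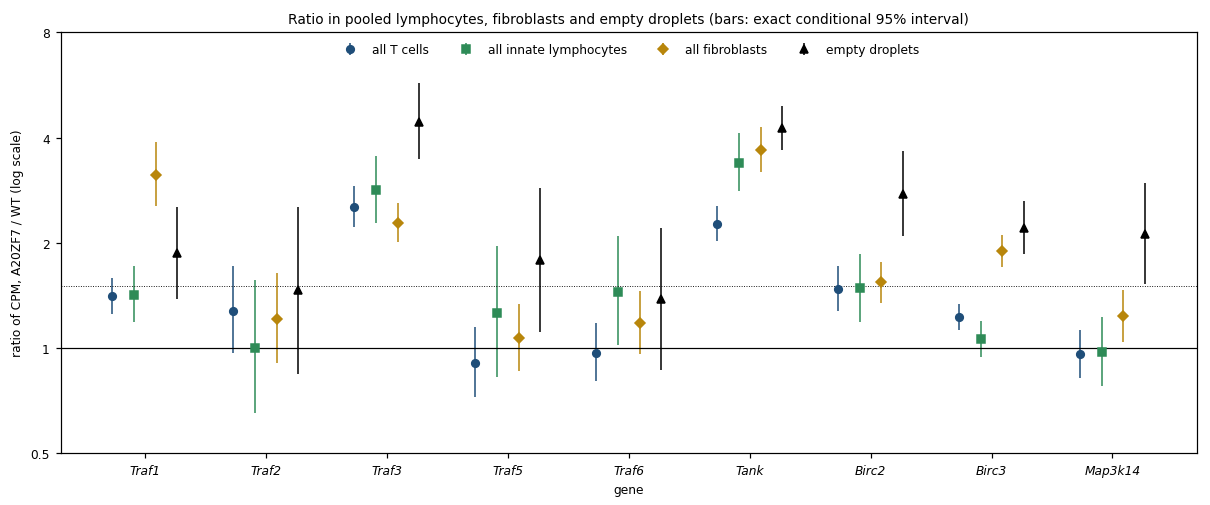
Ratio of the A20ZF7 to the WT level (y axis, log scale) of each gene (x axis) in all T cells, all innate lymphocytes, all fibroblasts and empty droplets; bars are exact conditional 95% intervals, the solid line marks 1 and the dotted line 1.5. *Traf3* and *Tank* stand above the dotted line in all 4 groups, *Traf1* and *Birc3* in fibroblasts and empty droplets, and *Map3k14* in empty droplets alone.

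The 2 WT mice, told apart by their antibody tags, gave the only spread between animals. In all T cells *Traf3* measured 98.4 CPM in mouse 1 (700 cells) and 94.8 CPM in mouse 2 (932 cells), against 250 CPM in A20ZF7. *Tank* measured 135 and 140 CPM in the WT mice and 312 CPM in A20ZF7. Both genes were higher in A20ZF7 than in either WT mouse in all 8 classes and pools compared, and the WT mice differed by at most 1.71 times for *Traf3* and 1.53 times for *Tank*. *Birc3* was not separated in Th17-like T cells, where the WT mice measured 216 and 405 CPM and A20ZF7 lay between them at 329 CPM. The *Traf1* levels of the WT mice in Th17-like T cells, 87.7 and 155 CPM, were 1.77 times apart, which is more than the 1.40 between the genotypes. The tags of A20ZF7 mice were not analysed here, so no spread between A20ZF7 animals is known.

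**Figure D4:**
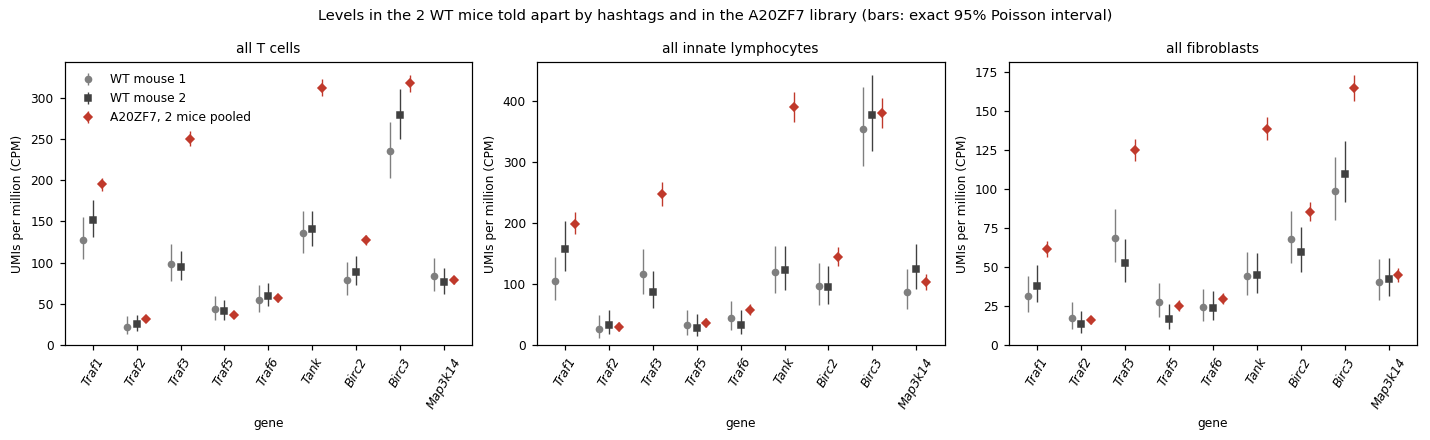
Level in CPM (y axis) of each gene (x axis) in WT mouse 1, WT mouse 2 and the A20ZF7 library of 2 pooled mice, in all T cells, all innate lymphocytes and all fibroblasts; bars are exact 95% Poisson intervals. *Traf3* and *Tank* lie above both WT mice in all 3 panels, while the *Map3k14* intervals overlap.

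For *Traf3* and *Tank*, the share of cells with at least 1 UMI moved with the levels in T cells and fibroblasts. *Traf3* was found in 10.4% of WT and 23.3% of A20ZF7 T cells, at median depths of 949 and 968 UMIs. After thinning each cell to 500 UMIs, which left out 0 WT and 1015 A20ZF7 T cells, the shares were 4.69% (3.80-5.72) and 12.1% (11.4-12.8). *Tank* was found in 13.8% and 28.5% of T cells, or 6.68% (5.61-7.87) and 14.97% (14.3-15.7) after thinning. In fibroblasts the thinned *Tank* shares were 2.10% (1.70-2.57) and 6.49% (5.96-7.04). No class is known to lack these genes, so the empty droplets above stand in for the background. *Map3k14* was found in 8.72% and 8.67% of T cells. Shares did not always move with levels where depth differed. In other innate lymphocytes, with median depths of 808 and 626 UMIs, *Birc3* was found in 25.2% of WT and 22.1% of A20ZF7 cells. Its ratio of levels there was 1.06.

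Other genes of the TNF receptor, TRAF and NF-kB pathway were read from a list of 48 genes listed by known role. In Th17-like T cells 37 could be read, of which 6 were at least 1.5-fold higher and 4 as much lower, beside 11.1% and 9.48% of all genes read. The higher ones included the costimulatory receptor genes *Tnfrsf4* (OX40, 3.51) and *Tnfrsf9* (4-1BB, 2.46), both of which signal through TRAFs, and the subunit genes *Rel* (1.67) and *Nfkb1* (1.54). The lower ones were *Traf4* (0.547), *Traf3ip2* (0.615), *Sharpin* (0.577) and *Map3k8* (0.569). In CD8 T cells 7 of 25 were higher and 1 lower, beside 10.8% and 9.87% of all genes, with *Tnfrsf4* at 8.32, *Tnfrsf9* at 6.08 and *Nfkbib* at 0.480. In other innate lymphocytes 7 of 39 were higher and 4 lower, beside 12.3% and 12.5% of all genes, the lower ones being *Map3k8* (0.416), *Tnfrsf25* (0.448), *Ikbkg* (0.585) and *Nfkbib* (0.609). In *Adamdec1* fibroblasts 17 of 47 were higher and 0 lower, beside 11.3% and 10.2% of all genes, among them the receptor genes *Cd27* (5.71) and *Tnfrsf4* (7.79), known from T cells. The higher ones also included 5 of the 8 NF-kB subunit and inhibitor genes, among them *Rel* (2.44) and *Nfkb1* (1.97). The gene with the highest mean level in each role was within the fold in Th17-like T cells, where *Tnfaip3* measured 1493 CPM in WT and 1404 CPM in A20ZF7 (0.940, 0.867-1.02), *Nfkbia* 872 and 943 CPM (1.08, 0.973-1.20), *Tab2* 252 and 280 CPM (1.11, 0.914-1.36), *Birc6* 212 and 288 CPM (1.36, 1.10-1.69) and *Tnfrsf1b* 201 and 277 CPM (1.38, 1.11-1.74). In *Adamdec1* fibroblasts *Tnfaip3*, which encodes A20 itself, measured 195 CPM in WT and 481 CPM in A20ZF7 (2.47, 2.29-2.66). In empty droplets *Tnfaip3* measured 560 and 993 CPM, and the 4 T cell genes in these fibroblasts summed to 135 and 379 CPM as above. The part of either in the fibroblast ratios of pathway genes was not tested.

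Across 38 units, each a class in 1 library with at least 100000 UMIs (16 in WT, 22 in A20ZF7), the genes with a pattern close to that of *Traf3* included *Tank* (Pearson r = 0.931 of log2(CPM + 10)) and *Lag3* (0.927), among 6619 genes. For *Tank* they included *Traf3* and *Rnf157* (0.915). *Traf1* was most like *Ccr9* (0.963), *Myo1g* (0.956) and *Dock2* (0.940), and *Birc3* most like *Runx1* (0.969), *Elmo1* (0.963) and *St6galnac3* (0.947). *Birc2* was nearest to *Vps54* (0.911), *Ptp4a2* (0.891) and *Cpm* (0.890). *Map3k14* was nearest to *Nup98* (0.880), *Parp4* (0.874) and *Vps13b* (0.870), *Traf6* to *Supt20* (0.862), *Jak3* (0.843) and *Mta3* (0.837), *Traf2* to *Cmc2* (0.822), *Lcp2* (0.821) and *Rangap1* (0.817), and *Traf5* to *Dnajc8* (0.779), *Dazap2* (0.746) and *Mkln1* (0.740). Between *Traf5* and *Tank* r was 0.264, the lowest among the pairs of the 9 genes. The units share 2 libraries, their depth and their free RNA, so these values describe the libraries and have no p.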

How the data were processed

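Small intestinal lamina propria cells of 2 WT and 2 A20ZF7 mice were profiled with 1 gene expression library per genotype. The deposited files hold UMI counts per gene and barcode that the authors made with Cell Ranger (7.1 per the labels, 8.0.0 per the file headers), before any filter on cells. The stated reference is mm10. The gene lists of the libraries differ, and 1905 shared IDs carry unlike symbols, so whether both used the same reference is not known. Barcodes were kept with 200 to 2500 genes, at most 15% mitochondrial counts and a UMI threshold of 675 (WT) or 396 (A20ZF7), and 2547 WT barcodes with both hashtags were removed. No A20ZF7 barcode was removed by hashtags, so this filter differed between the genotypes. Its part in the ratios was not tested. Kept cells held 20331737 (WT) and 46174742 (A20ZF7) UMIs, and 99.7% and 96.6% of all UMIs fell on shared IDs. Cells were gated by marker genes (at least 3 UMIs from 2 genes of a lineage list), and UMIs were summed per class. Other doublets were kept, and removal by Scrublet score (scanpy 1.11.5) was an alternative. Intervals are exact Poisson, binomial or conditional 95% intervals (scipy 1.17.1) and cover counting error only. The named genes are the 9 genes, the gene with the highest mean level in each role of the pathway list, and the 3 genes most like each of the 9, of which 1 gene is not reported here. The members and lists were chosen with earlier results of these data known. The hashtag files of both genotypes are identical, so tags were used for WT alone, where their separation was weak. The ratio script was tested on simulated data.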

Additional observations from a re-analysis of the deposited data

How the results depend on the processing

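Of 863 values recomputed under alternative settings, 752 stayed within their 95% interval or near their count, 111 moved and 0 reversed. Only a ratio already past the fold could be counted as reversed, and some ratios within the fold did cross 1. For example, *Traf5* in Th17-like T cells went from 1.21 to 0.751 without WT mouse 1. *Birc3* in other innate lymphocytes went from 1.06 to 0.731 with a minimum of 1000 UMIs. *Traf3* and *Tank* were at least 1.5-fold higher in all 9 of these settings in Th17-like T cells, CD8 T cells, other innate lymphocytes and *Adamdec1* fibroblasts, from 1.91 to 3.54 for *Traf3* and from 1.92 to 3.74 for *Tank*. The level of A20ZF7 T cells over *Adamdec1* fibroblasts became 2.70 for *Traf1* and 1.62 for *Birc3* with a minimum of 1000 UMIs, 3.66 and 2.22 with the level of empty droplets taken off, and 2.17 for *Birc3* with CPM computed without mitochondrial, ribosomal, immunoglobulin and receptor genes; the cause was not tested. Leaving out 1 WT mouse at a time gave WT levels of T cells over *Adamdec1* fibroblasts from 3.82 to 4.08 for *Traf1* and from 2.45 to 2.46 for *Birc3*, and from 3 to 5 genes higher in Th17-like T cells. These fits use only WT cells with a hashtag call, for which no share of all genes past the fold was computed. In barcodes of 1 to 9 UMIs, an alternative chosen after seeing the data and not counted above, the *Map3k14* ratio of 2.12 in empty droplets became 0.984, and the cause was not tested. No paired analysis was possible because the mice were pooled into 1 library per genotype and no label pairs WT with A20ZF7 mice. Depth limits *Traf2*, which could be read in 7 of 19 classes.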
